A study of Mus musculus with 200 samples.

Results

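The 10 genes described here are those that neutrophils use to build their granules and their cytosolic antimicrobial store, measured in whole mouse embryos at embryonic day 11.5: Camp, Lcn2, Ltf and Ngp (secondary granules), Mpo, Elane and Prtn3 (primary granules), S100a8 and S100a9 (cytosol) and Lyz2 (lysozyme). They are 10 of the 22033 genes in the deposited expression tables, taken by symbol, and all 10 passed a filter at a mean of 1 RPM (a gene's reads divided by all gene reads of the library and scaled to 1e+06) in both generations, as did 13145 genes in the N2 embryos. The set was chosen by symbol with expression results of these embryos already known, including levels, coexpression, clustering in litters and the relation to somite number and mother. Those values are therefore given as a description, the counts of members past a threshold are printed beside the share of all genes past it, and nothing is supported with them. The allele votes and the embryo's own genotype were named for a check and were not a criterion for the choice, so that tests are given on them.

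The embryos came from B6 (C57BL/6J, the reference laboratory strain) and Cast (CAST/EiJ, a wild-derived strain of another subspecies), with the mother named first in each cross. There were 8 B6 × Cast and 8 Cast × B6 F1 embryos from 4 litters, and N2 embryos from backcrosses of F1 animals (B6 mother, Cast father) to B6, of which 89 in 17 litters had a B6 mother and an F1 father and 65 in 12 litters had an F1 mother and a B6 father. All N2 embryos thus carry B6 mitochondria and are either B6/B6 or B6/Cast at each autosomal gene, and no embryo was treated or carried an engineered allele. Each whole embryo, freed of membranes and placenta, gave one 3SEQ library, a sequencing method that reads the 3' ends of polyadenylated RNA, so that levels were not divided by transcript length and are not compared between genes. Gene counts summed to between 15703888 and 38234229 reads in the F1 embryos and between 245220 and 5370322 reads in the N2 embryos, where 1 read is 0.435 RPM at the median depth. Somite number, the count of segments along the trunk and a measure of stage, was recorded for 147 of 154 N2 embryos and ran from 42 to 57.

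Neutrophils mature in steps, and each step fills its own kind of granule. The primary granules are made first, in promyelocytes, and hold myeloperoxidase (Mpo) with the serine proteases neutrophil elastase (Elane) and proteinase 3 (Prtn3). The secondary granules follow, in myelocytes, and hold lactoferrin (Ltf) and lipocalin 2 (Lcn2), which withhold iron from microbes, the cathelicidin Camp and the neutrophilic granule protein Ngp. S100a8 and S100a9 form calprotectin, the most abundant protein pair of the neutrophil cytosol, while lysozyme M (Lyz2) is shared with macrophages. Around this stage the fetal liver is becoming the main site of blood formation. In RNA from a whole embryo, fewer cells of a type and less RNA per cell cannot be told apart.

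The 10 genes lie at 6 places in the mm9 genome (GENCODE gene bounds). Camp (chromosome 9, 109749889 to 109751970), Ngp (chromosome 9, 110322254 to 110325514) and Ltf (chromosome 9, 110921796 to 110945270) fall within 1170 kb between Camp and Ltf, and no embryo had different genotypes at any of them. Prtn3 (chromosome 10, 79337221 to 79345919) and Elane (chromosome 10, 79349057 to 79350961) are 3.14 kb apart, and S100a8 (chromosome 3, 90472993 to 90473956) and S100a9 (chromosome 3, 90496554 to 90499643) 22.6 kb apart, again with identical genotypes in every embryo. Mpo (chromosome 11, 87607083 to 87617915), Lcn2 (chromosome 2, 32240153 to 32243317) and Lyz2 (chromosome 10, 116714390 to 116719377) stand apart from these clusters, and Lyz2 lies 5.47 kb from its near-identical copy Lyz1. Reads with a close second match were discarded by the authors, so the Lyz2 counts may be incomplete and are uncertain.

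The upstream sequences of 3 members are shown because they stand for 3 courses described later: Ltf with the steepest relation to somite number, Camp with a shallower one and Elane among the primary granule genes. Each is the 150 bases before the transcription start given by RefSeq (GRCm38.p6), placed by exact match on mm9 and written 5' to 3' on the strand of the gene.
Camp (mm9 chr9:109751971-109752120, minus strand): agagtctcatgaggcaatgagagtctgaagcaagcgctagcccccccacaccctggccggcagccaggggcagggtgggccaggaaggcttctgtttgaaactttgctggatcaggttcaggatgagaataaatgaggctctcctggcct
Ltf (mm9 chr9:110921646-110921795, plus strand): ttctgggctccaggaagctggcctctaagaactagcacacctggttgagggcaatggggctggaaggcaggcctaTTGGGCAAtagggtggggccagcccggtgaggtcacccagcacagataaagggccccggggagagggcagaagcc
Elane (mm9 chr10:79348907-79349056, plus strand): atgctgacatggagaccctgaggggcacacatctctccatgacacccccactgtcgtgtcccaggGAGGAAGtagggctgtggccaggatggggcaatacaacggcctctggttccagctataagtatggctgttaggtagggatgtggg
Capitals mark letters of 2 short patterns searched on both strands of the 250 bases before each start: TTNNGCAA, of the kind bound by C/EBP factors, and GAGGAAG, of the kind bound by the ETS factor PU.1. TTNNGCAA was present in 4 members (Lcn2, Ltf, Ngp and S100a9) and in 9.56% of 32851 RefSeq promoters. GAGGAAG was present in 5 members (Elane, Lcn2, Mpo, Prtn3 and S100a8) and in 10.6% of the promoters. Such a match is a description of letters and not a binding site.

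In the 4 F1 litters, which differ in stage, the secondary granule genes spanned the widest range of any members. Somite number was recorded for 3 of 4 embryos in each Cast × B6 litter. It was recorded for 5 of 5 in B6 × Cast litter 5 and 2 of 3 in B6 × Cast litter 3. The somite ranges given are those of the recorded embryos. The embryo of the youngest litter with the lowest Ngp value had no recorded number. Ngp was read at 0.116, 1.02, 1.54 and 3.13 RPM in the 4 embryos of the youngest litter (Cast × B6 litter 1, 41 to 43 somites) and at 9.79, 12.8, 13.4 and 15.1 RPM in Cast × B6 litter 2 (46 to 48 somites). It reached 10.03, 14.7, 17.9, 28.8 and 42.2 RPM in B6 × Cast litter 5 (48 to 50 somites) and 44.4, 46.6 and 52.5 RPM in B6 × Cast litter 3 (58 to 63 somites). Thus the youngest and the oldest litter did not overlap with any other litter, while the 2 litters between them did overlap, and the oldest litter's mean was 32.97 times that of the youngest.

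Ltf, which encodes the iron-binding lactoferrin, followed the same order. Its values were 0.116, 0.732, 1.08 and 1.54 RPM in the youngest litter, 5.12, 5.30, 7.30 and 7.36 RPM in Cast × B6 litter 2, between 5.42 and 21.4 RPM in B6 × Cast litter 5 and 22.8, 23.4 and 29.7 RPM in the oldest, a 29.1-fold range of litter means. Lcn2 means ran from 1.39 ± 0.968 RPM (SD, n = 4) in the youngest litter to 22.7 ± 4.41 RPM (n = 3) in the oldest, 16.3-fold. Camp means ran from 2.23 ± 1.82 to 20.2 ± 2.36 RPM over the same litters, 9.07-fold. For both genes the oldest and the youngest litter were far apart relative to the spread among littermates.

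The calprotectin genes took an intermediate place. S100a9 was read at 9.15, 29.6, 37.9 and 72.5 RPM in the youngest litter and at 208.2, 245 and 263 RPM in the oldest, with no overlap and a 6.41-fold difference in means. S100a8 means were 39.2 ± 22.5 RPM (n = 4) and 285 ± 31.01 RPM (n = 3), 7.27-fold apart.

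The primary granule genes differed less between the F1 litters, and the means of Prtn3 and Elane did not follow the order of stage. Mpo was read at 37.5, 50.3, 61.5 and 104 RPM in the youngest litter and at 96.8, 101 and 143 RPM in the oldest, so that the litters overlapped. Prtn3 was highest in the 2 middle litters (64.9 ± 3.99 RPM, n = 4, and 65.4 ± 8.34 RPM, n = 5), and lower in the oldest (44.2 ± 5.31 RPM, n = 3) and in the youngest (30.1 ± 7.88 RPM, n = 4). Elane was highest in B6 × Cast litter 5 (8.66 ± 2.44 RPM, n = 5) and stood at 6.52 ± 1.37 RPM (n = 3) in the oldest and 3.05 ± 1.90 RPM (n = 4) in the youngest. Lyz2 lay between 0.667 and 2.02 RPM in all 16 embryos, where 1 read is 0.0332 RPM at the median depth, and its litter means ran from 0.792 ± 0.119 RPM (n = 4) in the youngest to 1.68 ± 0.294 RPM (n = 3) in the oldest, 2.12-fold.

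**Figure D1:**
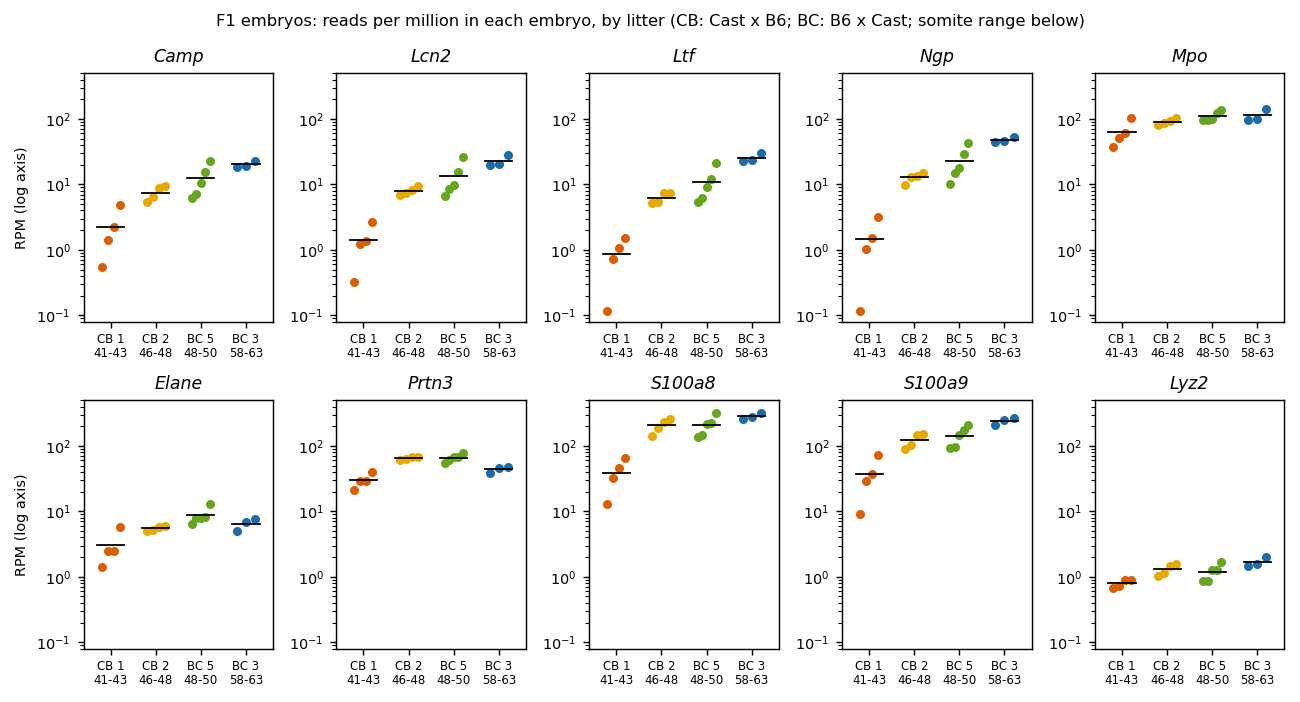
RPM (log axis) of each member in each of the 16 F1 embryos, with the litters in order of somite number along the x axis and a bar at each litter's mean. The 4 secondary granule genes and the S100 pair climb from the youngest litter (41 to 43 somites) to the oldest (58 to 63), by 32.97-fold for Ngp, while Mpo, Elane, Prtn3 and Lyz2 differ by less than 3-fold. Somite ranges are those of the embryos with a recorded number.

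Among the 154 N2 embryos, sequenced to less depth, Ngp ranged from 0 to 40.7 RPM (median 6.17, mean 8.60 ± 8.16, SD) and was without a read in 7 embryos. Ltf ranged from 0 to 43.9 RPM (median 5.22, mean 7.09 ± 6.98) with 8 embryos at 0, Lcn2 from 0 to 25.9 RPM (median 4.53, mean 5.39 ± 4.65) with 4 at 0, and Camp from 0 to 21.8 RPM (median 4.46, mean 5.28 ± 4.23) with 11 at 0. At the median depth 1 read is 0.435 RPM and a count of 0 allows up to 3 reads, so that an embryo without a read may still hold the transcript. Mpo was read in every embryo, from 13.4 to 179.7 RPM (median 55.8, mean 62.6 ± 33.3), and so was Prtn3, from 8.59 to 92.7 RPM (median 29.6, mean 31.7 ± 13.4). Elane ranged from 0 to 11.2 RPM (median 2.84, mean 3.26 ± 2.53). S100a8 had the widest range of all members, from 0 to 552 RPM (median 88.6, mean 107.5 ± 81.9), beside 1.17 to 269 RPM for S100a9 (median 52.5, mean 61 ± 40.5). Lyz2 ranged from 0 to 32.2 RPM (median 1.99, mean 3.44 ± 4.53) with 17 embryos at 0.

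Grouped by somite number, the N2 embryos differed most in the secondary granule genes. Ltf averaged 1.71 ± 1.53 RPM in the 21 embryos with 45 or fewer somites, 5.12 ± 4.86 in the 45 with 46 to 48, 7.93 ± 5.16 in the 67 with 49 to 52 and 15.3 ± 14.1 in the 14 with 53 or more, 8.92-fold from first to last. Ngp averaged 2.18 ± 1.63, 6.49 ± 6.91, 9.33 ± 6.14 and 18.2 ± 12.8 RPM in the same bins, 8.34-fold. The ranges of the first and last bin overlapped for both genes, from 0 to 5.69 RPM against 3.68 to 43.9 RPM for Ltf. Lcn2 differed by 5.41-fold, Camp by 3.13-fold, S100a9 by 3.11-fold and S100a8 by 2.89-fold between these bins. Among the primary granule genes the difference was 2.66-fold for Elane, 1.98-fold for Mpo and 1.03-fold for Prtn3, whose means stayed between 29.4 and 33.5 RPM throughout. Lyz2 ran the other way, from 4.03 ± 7.38 to 2.40 ± 3.07 RPM, well within its spread.

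**Figure D2:**
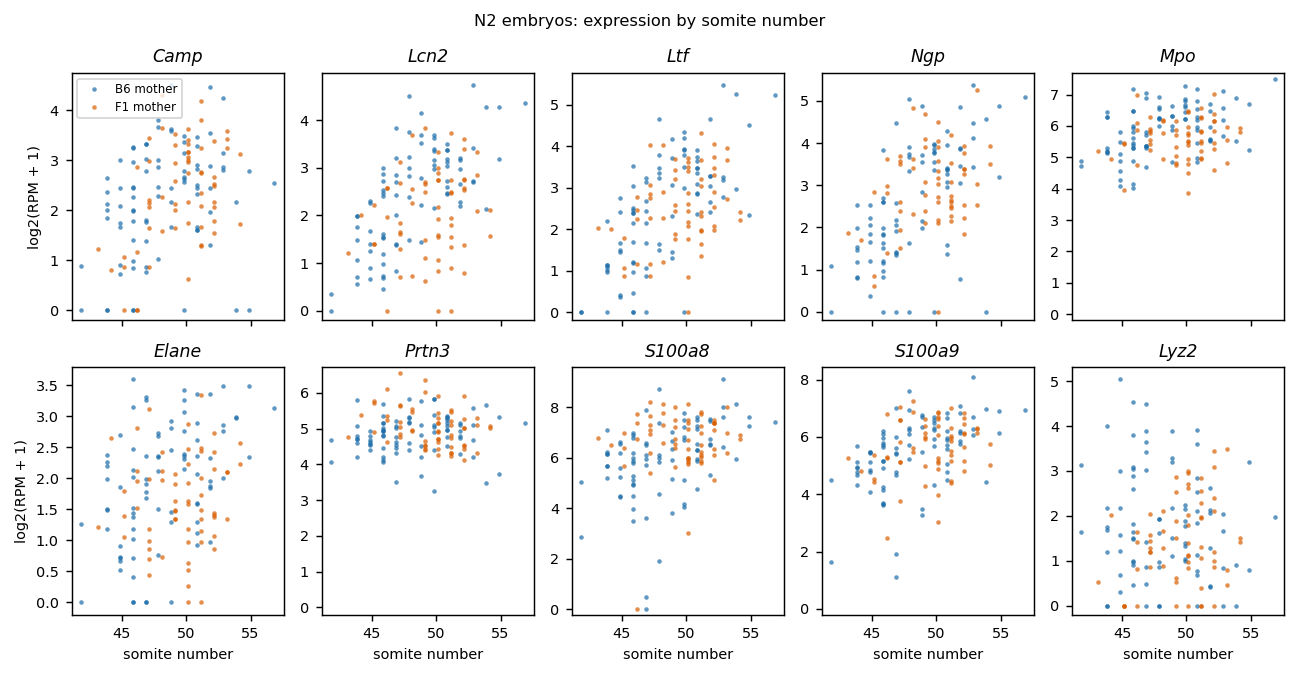
Expression as log2(RPM + 1) against somite number in the 147 N2 embryos with a recorded somite number, one point per embryo, coloured by the mother. Ltf and Ngp climb from means of 1.71 and 2.18 RPM at 45 or fewer somites to 15.3 and 18.2 RPM at 53 or more, whereas Prtn3 stays level and Lyz2 scatters.

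As a slope over somite number, fitted with edgeR across all genes, Ltf changed by 0.28 ± 0.04 log2 units per somite (SE), which is 6.90-fold over 10 somites, and Ngp by 0.26 ± 0.04, which is 6.17-fold. Lcn2 followed at 0.20 ± 0.04, Camp at 0.15 ± 0.04, S100a9 at 0.15 ± 0.03 and S100a8 at 0.13 ± 0.03. Elane (0.10 ± 0.03) and Mpo (0.08 ± 0.02) were shallower, and Prtn3 (-0.00 ± 0.02) and Lyz2 (-0.07 ± 0.04) did not pass. Thus 8 of 10 members passed an adjusted p of 0.05 in the rising direction, where 9.34% of 13156 genes did. Since litters rather than embryos were collected, the counts were also summed per litter, and there 2 members passed, Ltf (0.31 ± 0.06) and Ngp (0.29 ± 0.07), beside 0.661% of all genes in that direction. Mpo and Elane no longer passed once the sequencing lane entered the fit (0.02 and 0.05 per somite).

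The F1 embryos with a recorded somite number gave slopes of 0.22 per somite for both Ltf and Ngp, 0.18 for Lcn2, 0.14 for Camp, 0.11 for S100a8, 0.10 for S100a9 and 0.05 for Lyz2. These 7 members passed beside 10.7% of all genes rising, in a fit chosen after seeing the data. Mpo, Elane and Prtn3 had slopes of 0.03, 0.04 and 0.01 and did not pass. With the cross as a term in the fit no member passed, 5 of 10 having an unadjusted p under 0.05, and 934 genes still did. Each cross is made of 2 litters of different stage.

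**Figure D3:**
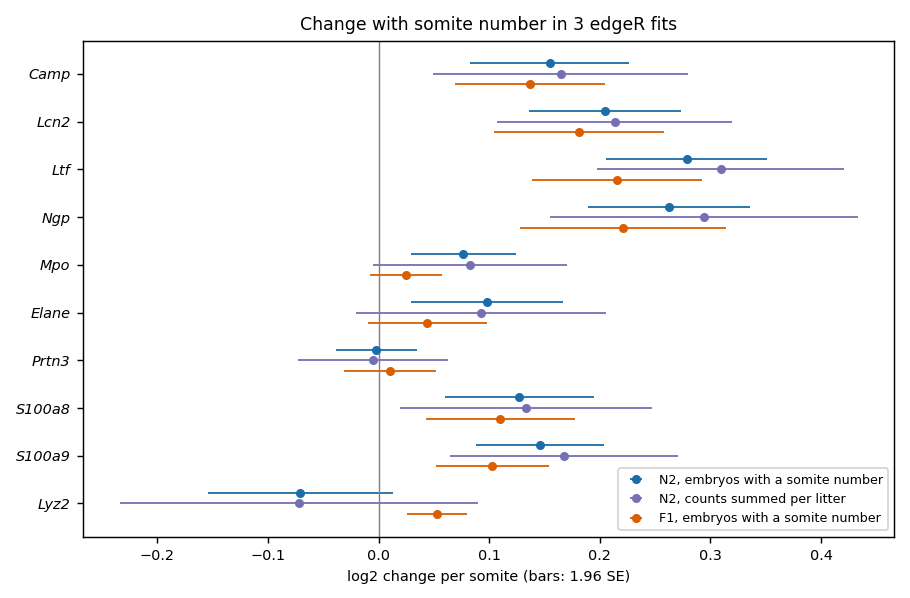
Change in expression per somite (log2, with bars of the 95% normal interval) for each member in 3 edgeR fits, over the 147 N2 embryos, over N2 counts summed per litter and over the F1 embryos with a somite number. Ltf and Ngp lie farthest to the right in all 3 fits (0.28 and 0.26 over the N2 embryos), and Prtn3 lies near 0.

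In a fit over embryos the slope over somite number was lower with F1 mothers than with B6 mothers for 7 members. With B6 mothers, Ltf went from 1.59 ± 1.65 RPM (n = 16) at 45 or fewer somites to 19.3 ± 16.1 RPM (n = 9) at 53 or more, whereas in embryos of F1 mothers it went from 2.09 ± 1.08 RPM (n = 5) to 7.99 ± 4.88 RPM (n = 5). S100a8 means went from 56.6 to 216 RPM with B6 mothers and from 90.8 to 135 RPM with F1 mothers. Fitted within each group, the slopes were 0.37 and 0.11 for Ltf, 0.34 and 0.10 for Ngp, 0.28 and 0.06 for Lcn2, 0.21 and -0.03 for S100a8 and 0.17 and 0.14 for Camp, for B6 and F1 mothers respectively. Prtn3 had a slope of 0.05 with B6 mothers, which did not pass, and of -0.11 with F1 mothers, which did. A test of the difference of slopes was added after seeing the data. It was passed by 7 members in the lower direction with F1 mothers (Lcn2, Ltf, Ngp, Mpo, Prtn3, S100a8 and S100a9) beside 11.4% of all genes. In the other direction it was passed by Lyz2, beside 3983 of 13156 genes. With counts summed per litter no gene passed that test, 644 genes and 1 member having an unadjusted p under 0.05. Embryos of B6 mothers spanned 42 to 57 somites and those of F1 mothers 43 to 54. Most embryos of B6 mothers with 53 or more somites came from B6 × F1 litter 1, sequenced in lane I. That litter had the highest Ltf mean among litters of B6 mothers (26.2 RPM). B6 × F1 litter 2 also had embryos with 53 or more somites, and its Ltf mean was far lower. The difference of slopes was not refitted without single litters.

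Levels by the mother alone, whatever the stage, overlapped widely. In a fit over embryos 4 members passed, all lower with F1 mothers, beside 1078 of 13145 genes in that direction. In either direction 20.7% of all genes passed. Lcn2 averaged 6.20 ± 5.22 RPM (n = 89) with B6 and 4.27 ± 3.47 RPM (n = 65) with F1 mothers (-0.56 ± 0.21 log2, SE), and Mpo 69.3 ± 37.1 against 53.4 ± 24.7 RPM (-0.41 ± 0.14). Elane averaged 3.74 ± 2.82 against 2.62 ± 1.90 RPM (-0.53 ± 0.20) and Lyz2 4.22 ± 5.49 against 2.38 ± 2.36 RPM (-0.72 ± 0.24). With counts summed per litter, the unit to which a mother belongs, 0% of 13142 genes passed by edgeR, 1512 genes and 1 member (Lyz2, -0.99 ± 0.40) having an unadjusted p under 0.05, and 3 genes passed by DESeq2. Over embryos, 2 members passed in the other direction under some alternatives: S100a8 was higher with F1 mothers with flowcell as a term, by the Mann-Whitney U test and in flowcell 1 alone (1.42 log2), and Prtn3 with other library scalings, by DESeq2 and in flowcell 1 alone. The S100a8 difference ran from -0.58 to 1.42 over the alternatives. An alternative chosen after seeing the data left out the embryos of lanes A and B. There 1 of the 4 members still passed over embryos, beside 2233 of 13213 genes in either direction. The Lyz2 difference turned to 0.23 among the lanes of flowcell 1 alone.

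In the F1 embryos 7 members were lower in Cast × B6 than in B6 × Cast beside 13% of all genes in that direction: Ltf by -2.17 ± 0.58 log2 (SE), Ngp by -2.15 ± 0.63, Lcn2 by -1.84 ± 0.51, Camp by -1.64 ± 0.44, S100a9 by -1.11 ± 0.40, Elane by -0.85 ± 0.27 and Mpo by -0.49 ± 0.17. The 2 Cast × B6 litters were the 2 youngest, so cross and stage cannot be told apart in this comparison. Between the litters nearest in stage (Cast × B6 litter 2 and B6 × Cast litter 5) 1 member passed, Elane, beside 1530 of 13060 genes in either direction. Cast × B6 litter 2 was the only F1 litter with no run on the GAIIx sequencer. Cross, litter and sequencing run therefore cannot be told apart between these litters. With counts summed per litter no gene passed by edgeR, 5 members having an unadjusted p under 0.05.

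The share of variance that lay between litters or lanes was below the median gene's for every member. Between 33.7% (Elane) and 54.9% (Mpo) of the variance in log2(RPM + 1) lay between the 29 litters, beside a median of 56.6% over 13145 genes. For the 14 lanes the shares were 22.8% (S100a9) to 50.4% (Mpo) beside a median of 55.3%. The litters with the highest and the lowest mean of Ltf also differed in Ngp and Mpo: B6 × F1 litter 1, at a mean of 53.3 somites, averaged 26.2 RPM of Ltf, 25.1 RPM of Ngp and 115.6 RPM of Mpo, whereas B6 × F1 litter 4, at 44.6 somites, averaged 1.14, 2.09 and 35.5 RPM. B6 × F1 litter 2, at 52.7 somites and all in lane J, averaged only 4.13 RPM of Ltf, 3.70 RPM of Ngp and 46.1 RPM of Mpo. Lane J had the lowest median depth of the 14 lanes. The flowcell took 24.2% of the variance of Lyz2 and at most 1.17% for any other member, beside a median of 10.1% over all genes. Of all genes, 75.5% had a smaller flowcell share than Lyz2. The lane means of Lyz2 were 7.80 RPM in lane J and 11.8 RPM in lane K against 0.821 to 4.76 RPM in the others.

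The ratio within the S100 pair also differed between lanes. Summed over embryos, the ratio of S100a8 to S100a9 reads was 0.507 in lane A, 1.01 in lane B and 1.37 in lane C and lay between 1.55 and 3.05 in the other 11 lanes. The F1 embryos had ratios of 1.29 (B6 × Cast) and 1.46 (Cast × B6). Lanes A and B each held 2 litters of B6 mothers that were in no other lane, so lane and litter cannot be told apart there. The S100a9 means of lanes A and B (68.03 and 57.3 RPM) fell within the range of the other lanes (29 to 98.8 RPM). Their S100a8 means (35.2 and 58.9 RPM) were the lowest of all 14 lanes. Without these lanes, 8 members again passed the test of somite number, all rising, beside 1388 of 13217 genes rising.

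Embryo by embryo, the secondary granule genes varied with each other and with the S100 pair, and less with the primary granule genes. Over 154 N2 embryos Spearman's rho was 0.81 between Ltf and Lcn2, 0.77 between Ltf and Ngp and 0.83 between Ngp and S100a9. The 6 pairs of secondary granule genes had a median rho of 0.64 and their 8 pairs with the S100 genes 0.66, whereas their 12 pairs with primary granule genes had 0.36. Mpo and Elane, both of the primary granule, reached 0.68, while Prtn3 reached 0.42 with Mpo and 0.31 with Elane. Lyz2 stood apart, with rho between -0.17 and 0.16 to every other member. Within lanes, where each lane's mean was removed, the medians for these subsets were 0.62, 0.71 and 0.35, and without any single litter the rho of Ltf and Lcn2 stayed between 0.80 and 0.83. These embryos share somite number and depth, and no p is given.

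In the 16 F1 embryos the 6 secondary granule pairs had rho between 0.94 and 0.99, and Lyz2, unlike in the N2 embryos, had rho of 0.35 to 0.77 with the other members. Ngp was the member that tracked Ltf most closely there (0.99).

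**Figure D4:**
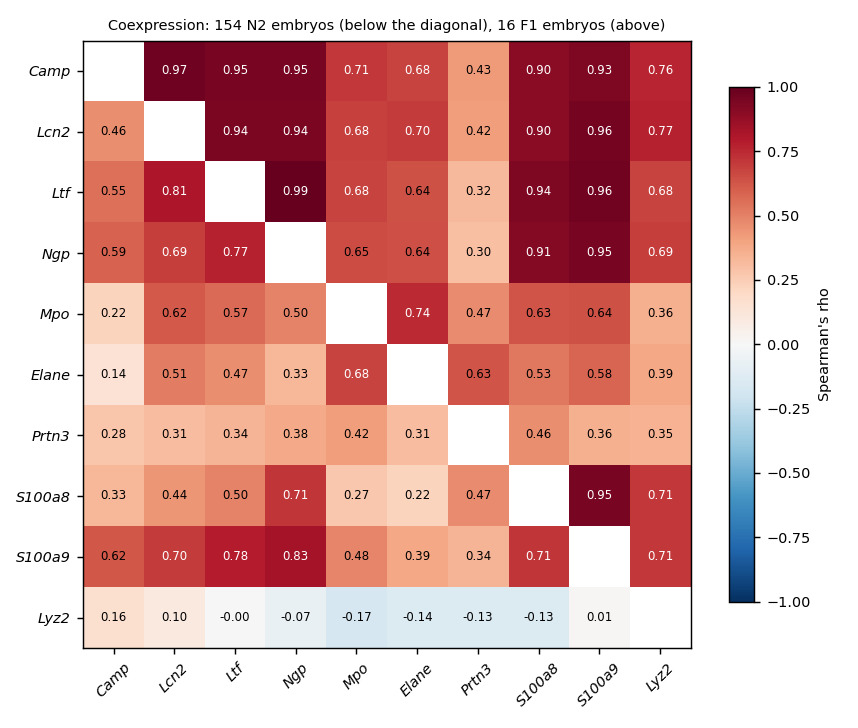
Spearman's rho between every pair of members over the 154 N2 embryos (below the diagonal) and the 16 F1 embryos (above), as a colour scale from -1 to 1 with the value in each cell. Secondary granule and S100 genes form the darkest block in both generations (0.83 for Ngp with S100a9 in N2), and Lyz2 is pale in N2.

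The genes outside the set whose levels followed each subset most closely were taken by rank of rho over the N2 embryos. For the secondary granule genes these were Tspo2 (0.72), known from erythroid cells, Fcnb (0.69), a ficolin of neutrophil granules, the complement gene C3 (0.68), Ttr (0.68), a liver-made thyroid hormone carrier, and Pglyrp1 (0.66), a peptidoglycan-binding granule protein. For the primary granule genes they were Pglyrp1 (0.67), Gamt (0.62), Reep6 (0.60), Apoe (0.60) and AI837181 (0.60). For the S100 pair they were Proc (0.57), a liver-made anticoagulant, Ambp (0.56), Sln (0.55), the erythroid factor Klf1 (0.55) and Fcnb (0.54), and for Lyz2 they were Prr13 (0.66), Cbx5 (0.61), Dcun1d5 (0.61), Dnajb9 (0.61) and Rbm15 (0.61).

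Of 40 other neutrophil genes in the table, 13 reached a mean of 1 RPM in N2, and 6 of these passed the somite test, all rising: Mmp9 (0.18 per somite), a granule metalloprotease, Fcnb (0.20), Pglyrp1 (0.17), Cebpe (0.11), the factor needed for secondary granules, Slpi (0.09) and Cyba (0.06). The median slope of the 13 genes was 0.06, beside 0.23 for the 4 secondary granule members and -0.01 for all genes. With counts summed per litter none of the 13 passed by edgeR (Mmp9 0.20 per somite, adjusted p = 0.0905; Pglyrp1 0.22, adjusted p = 0.0908; Fcnb 0.20, adjusted p = 0.152). Some genes of the list had low N2 means: 0.147 RPM for the receptor Csf3r, 0.0746 for Cxcr2, 0.103 for Retnlg and 0.140 for Mmp8. All of these lay under the level of 1 read in the median N2 library. In the deeper F1 libraries their means were 0.248, 0.0770, 0.4905 and 0.242 RPM, where 1 read is 0.0332 RPM at the median depth. Others of the list were higher in N2, such as Hp (7.36 RPM), Mmp9 (3.85 RPM) and Stfa3 (2.45 RPM). Chi3l3 had no read in any N2 embryo. The summed level of the 40 genes (136 to 469.7 RPM over N2 embryos, median 254) came mostly from Cyba (mean 175.9 RPM), which many cells express.

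Markers of other cell types also passed the somite test over embryos, and with counts summed per litter none of them did. Of 7 hepatoblast genes 6 passed, all rising (Ahsg 0.18, Apoa1 0.16, Alb 0.13, Ttr 0.11, Afp 0.09 and Fgb 0.07 per somite), with a summed level of 152 to 2630 RPM over N2 embryos. Of 12 macrophage genes 4 rose (C1qa 0.11, Laptm5 0.08, C1qc 0.07 and Csf1r 0.06) in a sum of 188 to 603 RPM. Of 10 erythroid genes 3 rose and 2 embryonic globins fell (Hbb-bh1 by -0.17 and Hba-x by -0.09), in a sum of 28870 to 186600 RPM. Blood progenitor genes (8 tested, 3 rising and 1 falling, 42.3 to 283 RPM) and megakaryocyte genes (6 tested, 2 rising, 142 to 728 RPM) were divided. None of the 2 mast cell, basophil and eosinophil genes (1.31 to 35.8 RPM), the 1 lymphocyte gene (0 to 7.24 RPM) or the 1 trophoblast and decidua gene (0 to 32.5 RPM) that could be tested passed, and 3 of 12 trophoblast genes were at 0 in every N2 embryo. In the F1 fit 7 of 7 hepatoblast, 5 of 14 other neutrophil and 4 of 12 macrophage genes rose, beside 10.7% of all genes. Of 10 erythroid genes 5 rose and 3 fell there, and of 8 blood progenitor genes 2 rose and 1 fell. Of 7 megakaryocyte genes 1 rose. No mast cell, basophil and eosinophil, lymphocyte or trophoblast and decidua gene passed in that fit. The part of these cell types in the values of the granule genes was not tested.

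Whether the mother's own blood contributed reads was checked with the allele votes, the reads that carry a SNP and vote for the B6 or the Cast allele. An embryo coded B6/B6 at a gene has no Cast allele there, while an F1 mother does and a B6 mother does not, so that Cast votes in B6/B6 embryos of B6 mothers give the background. With B6 mothers the members drew 4 Cast votes of 5595 (0.0715%, exact binomial 95% interval 0.0195 to 0.183%). With F1 mothers they drew 3 of 3057 (0.0981%, 0.0202 to 0.287%). Over all autosomal genes the shares were 0.180% and 0.213%. The intervals cover counting error only and treat votes of different embryos alike.

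The 3 votes with F1 mothers fell 1 each on Ltf (of 393), Mpo (of 1374) and S100a9 (of 442), and the 4 with B6 mothers on Ltf (1 of 567), Mpo (2 of 3421) and S100a9 (1 of 442). Ngp had 0 Cast votes of 554 with F1 mothers, which allows a share of up to 0.542%, and 0 of 660 with B6 mothers. In B6/Cast embryos the members drew 52.0% Cast votes with B6 and 52.5% with F1 mothers. Set against the latter, the upper bound of 0.287% in B6/B6 embryos of F1 mothers corresponds to 0.545% of the members' pooled votes. This takes maternal RNA in which both alleles are as active as in a B6/Cast embryo. Mpo alone gave 1374 of the 3057 pooled votes. Gene by gene the bound was 0.737% for Mpo, 2.03% for Ngp, 2.25% for S100a9 and 2.38% for Ltf. It was wider for Prtn3 (4.39%), Lcn2 (10.6%), Camp (15.8%) and Lyz2 (23.1%). None of the 7 members with 20 or more votes in each group passed Fisher's exact test between mothers (adjusted p of 1 for each), beside 0.356% of 9271 genes. Genotype codes were made by the authors from the same kind of votes along whole chromosomes. Elane and S100a8 had no votes in N2, and Camp and Lyz2 too few to add much.

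From a B6 mother, blood would add B6 votes to B6/Cast embryos. The B6 allele fraction (BAF) in such embryos was 0.686 with B6 and 0.673 with F1 mothers for Ngp, 0.456 and 0.450 for Mpo, 0.451 and 0.407 for Ltf, 0.462 and 0.442 for S100a9 and 0.455 and 0.472 for Lcn2. None of 7 members passed (4.43% of 9215 genes did), and permuting whole litters gave an adjusted p of 1 for each of the 8 members with votes, among 11 such permutation tests of vote shares. In the reciprocal F1 crosses a maternal contribution would move BAF in opposite directions. It was higher in Cast × B6 by 0.091 for Ngp, towards the father's B6 allele (exact permutation test over 8 and 8 embryos, p = 0.0115, adjusted p = 0.249), a mean that includes an embryo with 2 votes and a BAF of 1. With votes pooled over embryos the BAF of Ngp was 0.696 in Cast × B6 and 0.6503 in B6 × Cast. None of 7 members passed, beside 1.02% of all genes.

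**Figure D5:**
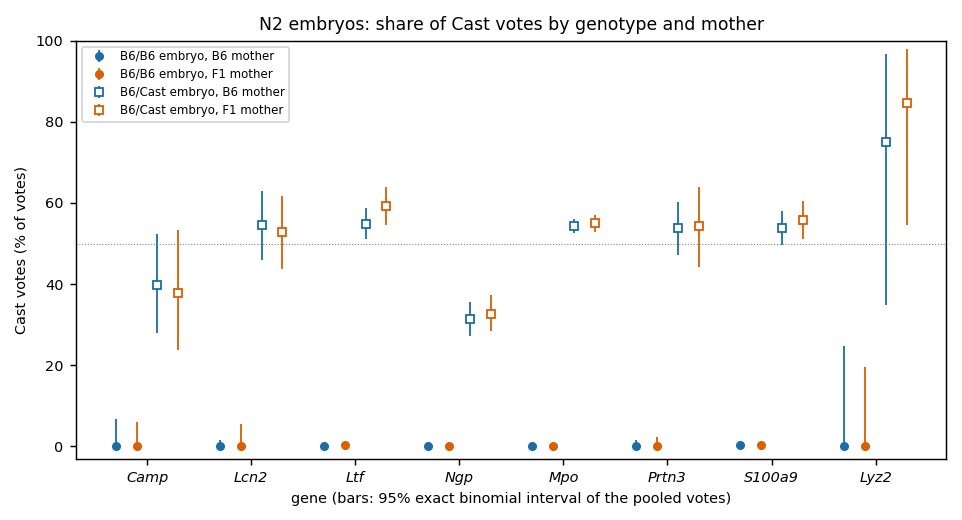
Share of Cast votes (percent, with exact binomial 95% intervals of the pooled votes) for the 8 members with votes in N2 embryos, by the embryo's genotype at the gene and its mother; filled points are B6/B6 and open squares B6/Cast embryos. All B6/B6 points lie at or near 0 for both mothers, and the B6/Cast points lie near 50% except Ngp at 31.4 and 32.7%, with Camp below and Lyz2 above 50% on few votes.

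The alleles themselves were unequal for several members, as they were for many of all genes tested (47.8%). Ngp had a BAF of 0.658 over 5868 votes in the F1 embryos, above 0.5 in 16 of 16 embryos, from 0.628 to 0.683 among B6 × Cast embryos and from 0.642 to 1 among Cast × B6 embryos, the last on 2 votes. S100a9 had a BAF of 0.435 over 5886 votes and Mpo of 0.465, both below 0.5 in 16 of 16 embryos, while Ltf was at 0.473 and Prtn3 at 0.460 with votes pooled, each with 4 of 16 embryos above 0.5. For Ltf the mean of the embryos' BAF was 0.501 ± 0.0820 (SD), and Cast × B6 litter 1 stood at 0.604 on 91 votes. An exact test by sign changes over embryos of the scaled difference between B6 and Cast votes, which gives embryos with more votes more weight, added after seeing the data, gave adjusted p-values of 1.9e-04 for Ngp, Mpo and S100a9, whose unadjusted p of 3.052e-05 is the smallest that 16 embryos allow, and of 0.0105 for Ltf and 0.0467 for Prtn3. Thus 5 of 8 members passed, beside 47.8% of 11598 genes. The study's calls also required a minimum departure of the average BAF from 0.5, which was not applied here. Camp (0.532 over 111 votes), Lcn2 (0.519 over 1192) and Lyz2 (0.437 over 158) did not pass.

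Whether the embryo's own genotype went with its level could be asked within litters, where genotypes segregate. Ngp averaged 11.1 ± 9.56 RPM (median 9.19, range 0.761 to 40.7, n = 70) in B6/B6 and 6.55 ± 6.11 RPM (median 4.88, range 0 to 31.7, n = 84) in B6/Cast embryos, a difference of -0.75 in mean log2(RPM + 1). Ngp thus was lower with a Cast allele, and its Cast allele drew the fewer votes in both generations. The Mann-Whitney U test over all genes gave an adjusted p of 0.00799, permuting genotypes within litters gave p = 0.00066, and B6/Cast embryos were lower in 20 of 26 litters with both genotypes. Among embryos of B6 mothers alone the difference was -1.13 (adjusted p = 0.00626), and among those of F1 mothers -0.21 (adjusted p = 0.901).

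Prtn3 differed in the other direction. It averaged 26.6 ± 9.31 RPM (median 25.4, range 8.59 to 69.04, n = 83) in B6/B6 and 37.9 ± 15.0 RPM (median 34.9, range 10.3 to 92.7, n = 70) in B6/Cast embryos, 0.47 higher in mean log2(RPM + 1), with an adjusted p of 1.1e-06. B6/Cast embryos were higher in 22 of 28 litters (p = 1e-05 permuting within litters, the smallest 100000 resamples can give). The Mann-Whitney U test was passed in all 5 alternatives. The pooled BAF of Prtn3 was 0.460 in the F1 embryos, and 0.462 and 0.457 in B6/Cast N2 embryos of B6 and F1 mothers. Whether the alleles' shares account for the difference in level was not tested for Prtn3 or Ngp. Elane, 3.14 kb away and with the same genotypes, averaged 3.02 ± 2.46 and 3.58 ± 2.60 RPM and did not pass (adjusted p = 0.422). In all, 2 of 10 members passed, beside 17.4% of 12722 genes.

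Camp and Ltf, which share every genotype with Ngp, differed by -0.35 (adjusted p = 0.185) and -0.23 (adjusted p = 0.695). Lyz2 averaged 4.42 ± 5.67 RPM in B6/B6 (n = 75) and 2.54 ± 2.83 RPM in B6/Cast embryos (n = 77), with an adjusted p of 0.0684 over all embryos and 0.00501 after centring within litters. B6/Cast embryos were lower in 22 of 25 litters for Lyz2 (p = 0.00025 permuting within litters, among 10 members so tested). The remaining members, Lcn2 (0.24), Mpo (0.19), S100a8 (-0.10) and S100a9 (-0.11), did not pass, with adjusted p-values of 0.358, 0.306, 0.809 and 0.734. For Mpo, B6/Cast embryos were higher in 19 of 25 litters (p = 0.0351 permuting within litters).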

How the data were processed

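Whole-embryo 3SEQ libraries of 16 F1 embryos (2 runs each, 32 in GEO, taken to be summed in the deposited columns, which the files do not state) and 154 N2 embryos were analysed. Per the study's methods, the authors trimmed poly(A), mapped reads with Bowtie2 (version not given in the sources used here) to mm9 and to a Cast version of it, discarded reads with a close second match and deposited raw read counts over RefSeq exons. The authors also deposited allele votes, which are estimated counts since the SNPs of a read share 1 vote, and genotype codes from a hidden Markov model along each chromosome. No strand setting is given in the sources used here. Not used were 8 N2 columns of embryos with no group, and 6 embryos with a mother but no genotypes entered 1 alternative only.

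RPM was each count over the sum of counts in its column. Counts were tested with edgeR 4.0.16 (TMM, quasi-likelihood) over genes that averaged 1 RPM or more, with limma 3.58.1 (voom) and DESeq2 1.42.0 among the alternatives in R 4.3.3, and p-values were adjusted by Benjamini-Hochberg over all genes tested, with 0.05 as threshold. The embryos' own genotype was tested by a Mann-Whitney U test of RPM over 12722 autosomal genes (normal approximation with tie correction, at least 70 embryos of each genotype for every member), and for each member by 100000 permutations within litters, two-sided, of mean log2(RPM + 1). Votes were rounded for Fisher's exact test and needed 20 per group. BAF was compared between the F1 crosses with an exact permutation test over embryos. Embryos of a litter share a mother, so p-values over embryos may be too small, and litters are given beside them.

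The members and the gene lists were chosen with earlier results of these data known. All 10 members are named, with the 5 other genes of highest rho for each subset and the marker genes that passed. On simulated data the somite test over N2 embryos recovered 93% of 100 genes changed by 0.2 per somite and 60% of 100 changed by 0.1. Over litters it recovered 83% of 100 changed by 0.3 and 7% of 100 changed by 0.1. The simulated libraries were drawn independently, without effects shared within a litter or lane. RefSeq proteins were not used here.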

Additional observations from a re-analysis of the deposited data

Results flagged for a closer look

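The slope over somite number differed between embryos of F1 and B6 mothers for 8 members in a test of the difference itself, fitted over embryos with edgeR and chosen after seeing the data. The difference, F1 minus B6 mothers, in log2 per somite was -0.26 for Ltf (adjusted p = 0.00622), -0.24 for Ngp (0.0126), -0.23 for S100a8 (0.00700), -0.22 for Lcn2 (0.0129), -0.18 for S100a9 (0.0157), -0.15 for Prtn3 (0.00165), -0.13 for Mpo (0.0362) and 0.25 for Lyz2 (0.0312). Camp (-0.03) and Elane (-0.15, adjusted p = 0.0878) did not pass. In all, 5489 of 13156 genes passed this test over embryos and none passed it when litters were the unit (644 at an unadjusted p under 0.05 by edgeR).

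Of 32 groups of F1 embryos tested for it, 2 held an embryo far from the others, where chance gives about 1 in 20 groups. Elane was at 12.9 RPM in an embryo of B6 × Cast litter 5, beside 4.98 to 8.31 RPM in the other 7 of that cross. That embryo was also the highest of its litter for every other member, such as Ngp (42.2 RPM) and S100a8 (313.9 RPM). Its library had the fewest reads of the F1 embryos (15703888). The BAF of Mpo was 0.417 in an embryo of Cast × B6 litter 1, beside 0.456 to 0.490 in the other 7.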

How the results depend on the processing

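Counts of genes that passed changed by more than 1.5 times as follows, and the cause was not tested. For somite number over N2 embryos (2551 genes) they were 4811 with flowcell, 4004 with mother and 1206 with lane as a term, 6045 and 1265 within B6 and F1 mothers, 531 and 1332 with litter and lane as random effects in voom, and 1438 and 4565 in flowcells 1 and 2. Leaving out each litter gave 1422 to 4931. Per litter (91 genes) they were 55 at 5 RPM, 207 by DESeq2 and 167 with mother as a term. For the mother over embryos (2716) they were 5729 with flowcell as a term, 0 with either random effect, 4092 and 4468 in flowcells 1 and 2, with 2151 to 3551 when each litter was left out, and per litter (0) they were 1 without a filter and 3 by DESeq2. For the F1 cross (3594) they were 0 per litter, 1530 between litters nearest in stage and 1734 to 5726 without each litter (1 to 10 members). Own genotype (2208) gave 1197 and 1150 within B6 and F1 mothers, F1 BAF by cross (108) 0 between nearest litters and 1377 with pooled votes, Cast votes in B6/B6 embryos (33) 17 in flowcell 1 and 24 to 39 without each litter, the F1 somite test (2846) 934 with cross as a term, and the difference of slopes (5489) 0 in voom and 0 per litter. Among values of members that passed in the reported fits, directions turned in 3 cases: the somite slope of Mpo (-0.00315) and S100a8 (-0.0312) among F1 mothers, and the mother difference of Lyz2 (0.234) in flowcell 1. Without B6 × F1 litter 1 the N2 somite slopes of Mpo (0.0492), Elane (0.0654) and S100a8 (0.0948) no longer passed, Mpo also failed without litters 7 and 17 and Elane without litters 7, 14, 17 and 19. In flowcell 1 only Ltf and Ngp of the 10 members passed the somite test, and with F1 mothers only Prtn3 did, falling by 0.11. Of these values recomputed under the alternatives, 535 kept direction and side of the threshold, 145 kept direction only and 3 turned. Values that had not passed were not counted in this way, and some of them turned. The mother difference ran from -0.69 to 0.41 for Ltf, -0.44 to 0.72 for Ngp and -0.58 to 1.42 for S100a8. The somite slope ran from -0.12 to 0.15 for Lyz2. Others kept their direction, such as the own-genotype differences of Camp, Ltf and S100a9. No paired analysis was possible because replicate numbers were given in accession order and pair no samples of different groups. Genotypes, which segregate within litters, were compared within them. Depth limits the low members most: in the median N2 library 1 read is 0.435 RPM.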
